A study of Danio rerio with 4 samples.

Results

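Red cell transcripts were compared between libraries of endothelial cells from the floor and the roof of the zebrafish posterior cardinal vein, which drains the trunk and tail of the embryo. The genes described are 3 regulators of red cell formation (gata1a, klf1 and SOX6), a heme synthesis gene (alas2) and 2 genes of the red cell membrane (SPTB and slc4a1a), taken by their Ensembl symbols with case ignored. Globin genes were left out of the set, and 6 of their 12 rows lay at the ceiling of the counts. Of the 6 symbols, 5 matched 1 row each among the 32434 gene rows. The symbol slc4a1a matched no row. It has slc4a1 as a synonym in the RefSeq gene table, and 2 rows carry the symbol SLC4A1. One of these had 0 counts in all 4 libraries, and the names used here do not say which of them is slc4a1a. The row with counts is therefore described as SLC4A1 beside the 5 matched genes and is not part of their sums.

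All embryos carried Tg(fli1:gal4;uasKaede) and were analysed at 24 hours post fertilization. In this line the promoter of fli1, a gene active in endothelial cells and in some other lineages, drives Gal4, which turns on Kaede, a green protein that light makes red. Kaede was converted in the ventral or the dorsal part of the vein, and the cells that had turned red were sorted, with 6 embryos per group. Each side has 2 libraries, and no untreated or unconverted control was analysed here. Whether both libraries of a side stem from different embryos is not stated in the labels, so the p-values reflect only how these libraries vary, which may be technical.

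Primitive red cells of the zebrafish arise in the intermediate cell mass of the trunk, the tissue in which the cardinal vein also forms. GATA1, made from gata1a in zebrafish, switches on most red cell genes, and KLF1 acts with it on globin, membrane and heme genes in mammals. SOX6 represses embryonic globin genes and helps red cells mature in mice. ALAS2 makes the first precursor of heme in red cells, beta-spectrin, made from SPTB, forms the protein network under the red cell membrane, and the product of slc4a1a, band 3, exchanges anions and anchors that network. Zebrafish mutants in gata1a, alas2, sptb and slc4a1a are anaemic and are known as vlad tepes, sauternes, riesling and retsina.

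The ventral libraries held 108405 (library 1) and 79527 (library 2) gene counts, the dorsal libraries 115876 (library 1) and 51376 (library 2), and values of a side are given in that order throughout. No gene exceeded 1024 counts, the number of distinct identifiers of 5 bases, so counts were read as distinct identifiers with that ceiling, an inference from the values. The 5 matched genes stayed below it. Their highest value was 314 counts of alas2 in dorsal library 1, their lowest 14 counts of SOX6 in ventral library 2. Under that reading repeated identifiers still lower the larger counts. Correcting for them moved the log2 fold, ventral over dorsal, from -0.235 to -0.265 for alas2 and from -0.396 to -0.439 for SLC4A1. Levels, shares and ratios below are not corrected. Levels are given as CPM, counts per 1000000 gene counts. CEL-Seq reads the 3′ end of a transcript, so these levels do not scale with transcript length. In every library the 5 red cell genes gave more counts than all 18 pan-endothelial genes with a count together. They gave 416 against 183 counts in ventral library 1, 282 against 126 in ventral library 2, 625 against 65 in dorsal library 1 and 223 against 30 in dorsal library 2. Of the 27 pan-endothelial symbols listed, 22 matched a row. Symbols without a row, among them kdrl, egfl7, clec14a and pecam1, are missing from these sums whatever their level. The junction gene cdh5, a defining endothelial marker, was counted 2 and 1 times ventrally, 4 and 0 times dorsally, and ERG gave 0 in all libraries. Other endothelial genes were better detected, such as plvapb, which forms diaphragms of endothelial pores, with 22 and 20 counts ventrally, 10 and 6 dorsally, and the early endothelial regulator etsrp with 17 and 15 ventrally, 6 and 3 dorsally. The libraries labelled as endothelial thus held abundant red cell RNA on both sides.

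All 5 genes had lower fitted values in the ventral libraries, and none of these differences passed the test. The log2 fold changes, ventral over dorsal, ran from -0.23 for alas2 to -1.34 for SOX6, with a median of -0.59, against a median of -0.03 over all 1399 genes tested. A log2 fold below 0 was found for 53.9% of the tested genes. With edgeR's quasi-likelihood test and an adjusted p threshold of 0.05, 0 of the 5 genes were called, against 0.0% of all tested genes called lower and 0.429% called higher in the ventral libraries. DESeq2 and limma voom also called 0 of the 5. At an unadjusted p under 0.05, edgeR and voom had 3 of the 5 lower and DESeq2 had 1. Of all 1399 tested genes, 65 were lower with edgeR (4.65%), 76 with voom and 7 with DESeq2. In 4 of the 5 genes both ventral libraries lay below both dorsal libraries in CPM, an arrangement found in 19.5% of the tested genes. All 5 genes passed the filter on low counts, and none was near 0 on either side. The genes were chosen with earlier results of these data known, so these counts are a description. In pooled cells, fewer red cells and less red cell RNA per cell cannot be told apart.

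**Figure D1:**
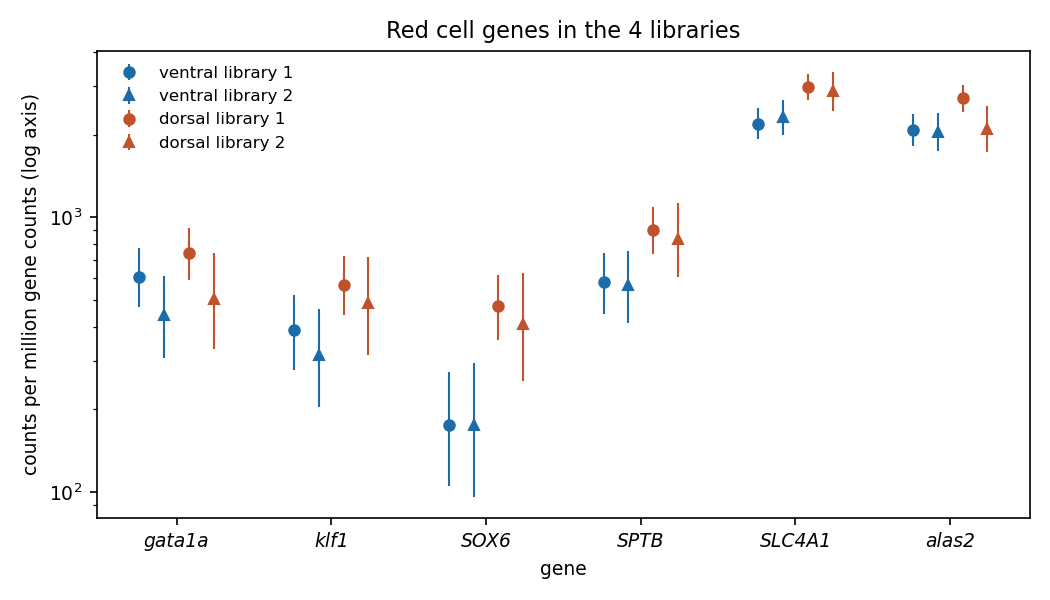
CPM on a log axis of 6 red cell genes in ventral (blue) and dorsal (orange) libraries, with circles for library 1, triangles for library 2 and exact 95% binomial intervals as bars, which cover counting error only. SOX6 has the widest gap between the sides, from 176 CPM in the higher ventral to 409 CPM in the lower dorsal library, and the gata1a points of both sides overlap.

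Among the regulators, SOX6 (ENSDARG00000015536) differed most between the sides. Ventrally it was counted 19 and 14 times, dorsally 55 and 21 times. These counts correspond to 175 and 176 CPM ventrally, against 475 and 409 CPM dorsally. The ventral libraries lay almost at the same level, and the lower dorsal library was 2.32-fold above the higher ventral one. The mean level was 176 ± 0.546 CPM ventral and 442 ± 46.6 CPM dorsal (SD, n = 2 libraries each). The fitted log2 fold was -1.34 ± 0.30 (SE), which is 2.53-fold higher in dorsal with an interval of 1.67 to 3.82 (2 SE), and the adjusted p was 0.106 in edgeR's test over all genes. From the pooled counts of each side the dorsal to ventral ratio was 2.59. Its exact 95% interval of 1.7 to 4.02 covers counting error only. The intervals of the single libraries were wide, 96.2 to 295 CPM in ventral library 2 and 253 to 625 CPM in dorsal library 2, so those libraries taken alone overlap. Without dorsal library 1 the log2 fold was -1.34 ± 0.37, and without dorsal library 2 it was -1.29 ± 0.33. Skeletal muscle markers, genes of a tissue that also uses SOX6 in the zebrafish embryo, summed to 4 and 3 counts ventrally, 2 and 3 dorsally. Their part in the SOX6 values was not tested.

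The regulator klf1 (ENSDARG00000017400) was counted 42 and 25 times ventrally, 66 and 25 times dorsally. Its levels were 387 and 314 CPM ventral and 570 and 487 CPM dorsal. The sides did not overlap, with the lower dorsal library 1.26-fold above the higher ventral one. The log2 fold of klf1 was -0.59 ± 0.25 (SE) (edgeR adjusted p = 0.367). It kept that size without dorsal library 1 (-0.59 ± 0.35) and without dorsal library 2 (-0.55 ± 0.31). The fold moved more with the ventral libraries, to -0.77 without ventral library 1 and -0.43 without ventral library 2.

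The master regulator gata1a (ENSDARG00000013477) was counted 66 and 35 times ventrally, 86 and 26 times dorsally. Its levels were 609 and 440 CPM ventral and 742 and 506 CPM dorsal. The sides overlapped, since ventral library 1 lay above dorsal library 2, and libraries of 1 side differed by 1.38-fold in ventral and 1.47-fold in dorsal. The log2 fold of gata1a was -0.27 ± 0.25 (SE), an interval of -0.77 to 0.23 (2 SE) (edgeR adjusted p = 0.798). It moved with single libraries, to -0.07 or -0.35 when dorsal library 1 or 2 was left out, and to -0.53 or -0.03 when ventral library 1 or 2 was left out. No difference in gata1a was detectable at this depth, and the interval still allows levels up to 1.7-fold higher in dorsal.

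Of the heme and membrane genes, alas2 (ENSDARG00000038643) was the most abundant matched gene, ranking 99 among all gene rows by mean CPM. Ventral counts were 226 and 163, dorsal counts 314 and 108. Its levels were 2085 and 2050 CPM ventral and 2710 and 2102 CPM dorsal. On this scale dorsal library 1 was high, and dorsal library 2 lay 1.01-fold above the higher ventral library. Scaled with TMM factors as in the fit, levels were 2637 and 2574 ventral and 3206 and 2899 dorsal. The size of the gap thus depends on the scaling. The log2 fold was -0.23 ± 0.14 (SE) (edgeR adjusted p = 0.613), and it was -0.15 without dorsal library 1 and -0.26 without dorsal library 2.

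SPTB (ENSDARG00000030490) was more even within the sides. Ventral counts were 63 and 45, dorsal counts 104 and 43, at 581 and 566 CPM ventral and 898 and 837 CPM dorsal. The libraries of 1 side differed by 1.03-fold in ventral and 1.07-fold in dorsal, and the gap between the sides was 1.44-fold. The log2 fold of SPTB was -0.61 ± 0.20 (SE), which is 1.52-fold higher in dorsal with an interval of 1.16 to 2.0 (2 SE). The adjusted p was 0.262 in edgeR's test over all genes. Without dorsal library 1 the log2 fold was -0.67 and without dorsal library 2 it was -0.51.

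The row named SLC4A1 (ENSDARG00000012881) had the highest level of the genes described, with rank 78 by mean CPM. Ventral counts were 238 and 184, dorsal counts 346 and 148, at 2195 and 2314 CPM ventral and 2986 and 2881 CPM dorsal. Both ventral libraries lay below both dorsal libraries, with a gap of 1.25-fold. The log2 fold of SLC4A1 was -0.40 ± 0.15 (SE) (edgeR adjusted p = 0.318). It was -0.48 without dorsal library 1 and -0.27 without dorsal library 2.

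**Figure D2:**
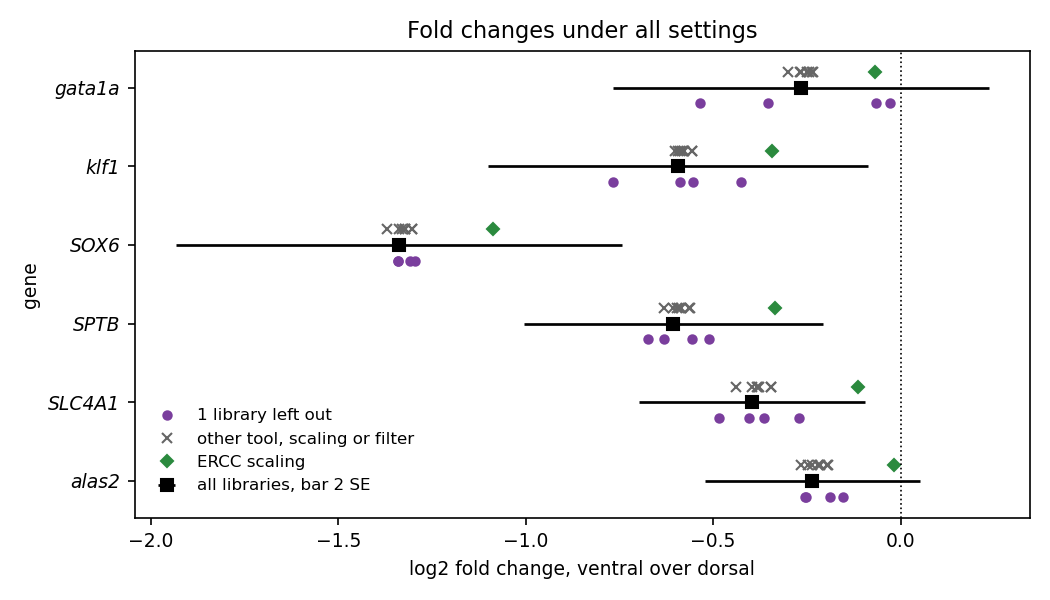
Log2 fold change, ventral over dorsal, of 6 red cell genes with all libraries (black squares, bars of 2 SE), with 1 library left out (purple), with ERCC scaling (green) and with another tool, scaling or filter (grey crosses). All points lie below 0, with SOX6 between -1.37 and -1.09, and gata1a and alas2 come within 0.03 of 0 under single settings.

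The order of levels was alike on both sides. By mean CPM, SLC4A1 and alas2 were highest, followed by SPTB, gata1a, klf1 and SOX6, in the ventral and in the dorsal libraries. Neighbours in this order were not all apart. SLC4A1 and alas2 overlapped in their intervals in ventral library 1 (1926 to 2492 against 1822 to 2375 CPM), and SPTB and gata1a did so too (447 to 743 against 471 to 774 CPM). In the dorsal libraries klf1 at 570 and 487 CPM and SOX6 at 475 and 409 CPM lay close together, whereas in the ventral libraries klf1 was at 387 and 314 CPM and SOX6 at 175 and 176 CPM.

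Ratios between genes of 1 library do not depend on how libraries are scaled. Per 100 gata1a counts, SOX6 had 28.8 and 40.0 counts ventrally, 64.0 and 80.8 dorsally. Per 100 SPTB counts it had 30.2 and 31.1 ventral and 52.9 and 48.8 dorsal. Per 100 klf1 counts it had 45.2 and 56.0 ventral and 83.3 and 84.0 dorsal. In all 3 ratios SOX6 was higher relative to the other red cell gene in both dorsal libraries than in either ventral one. The 3 ratios reuse the same SOX6 counts, and SOX6 was already the gene that differed most. They are therefore a description and no separate support. For klf1 per 100 gata1a counts the sides lay closer, at 63.6 and 71.4 ventral and 76.7 and 96.2 dorsal. Of the summed counts of the 5 genes, SOX6 held 4.57% and 4.96% ventrally, 8.8% and 9.42% dorsally. The exact 95% intervals of these shares were 2.77% to 7.04% and 2.74% to 8.19% ventral, and 6.7% to 11.3% and 5.92% to 14.0% dorsal. The share of alas2 was 54.3% and 57.8% ventral and 50.2% and 48.4% dorsal, and the share of gata1a overlapped between the sides. With 2 libraries per side an exact test over the 3 possible splits cannot go below 0.333, so no test of these ratios is given.

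**Figure D3:**
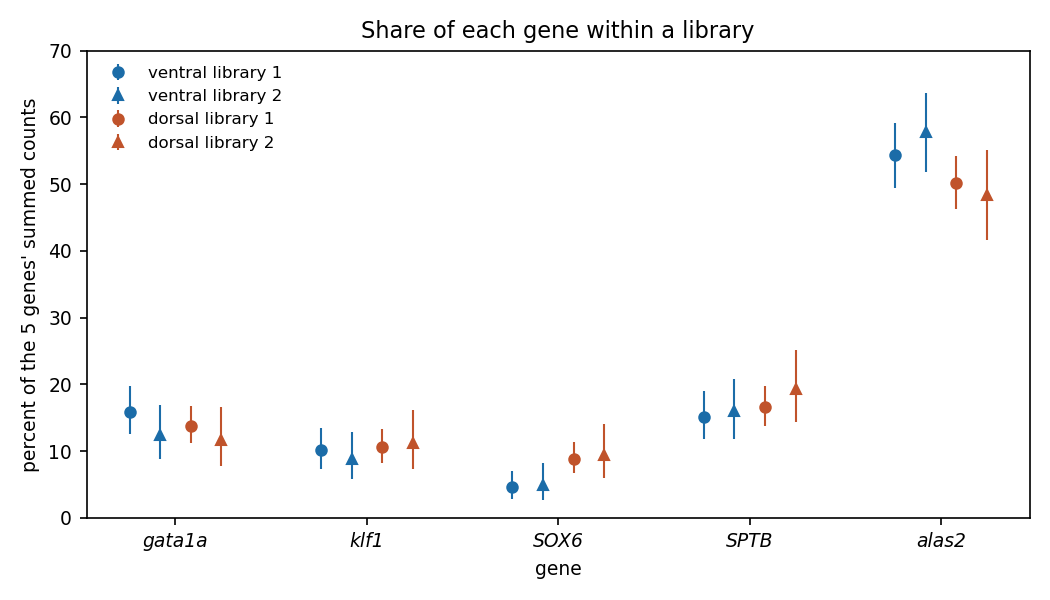
Percent of the summed counts of gata1a, klf1, SOX6, SPTB and alas2 held by each gene in ventral (blue) and dorsal (orange) libraries, with circles for library 1, triangles for library 2 and exact 95% binomial intervals as bars. SOX6 held 4.57% and 4.96% of ventral but 8.8% and 9.42% of dorsal sums, and the bars of both sides overlap for every gene in at least 1 pair of libraries.

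Summed over the 5 genes, levels were 3837 and 3546 CPM ventrally, 5394 and 4341 CPM dorsally. The means were 3692 ± 206 CPM ventral and 4867 ± 745 CPM dorsal (SD, n = 2 libraries each), 1.32-fold higher in dorsal. The sum is mostly alas2, and without alas2, an alternative added after the data were seen, the log2 fold of the sum moved from -0.40 to -0.60. Relative to the synthetic ERCC spike-ins, the order of libraries changed. The 5 genes gave 42.9 and 34.3 counts per 1000 spike-in counts in the ventral libraries, 67.4 in dorsal library 1 and 20.3 in dorsal library 2. Dorsal library 1 was thus highest and dorsal library 2 lowest on this scale. Dorsal library 2 had the fewest gene counts per spike-in count, 4.68 against 9.68 to 12.5 in the other libraries. Since the highest spike-in counts reached 959 to 1020, close to the ceiling of identifiers, this scale is approximate. In edgeR with ERCC scaling the median log2 fold over the tested genes shifted from -0.03 to 0.22, and SOX6 stood at -1.09 ± 1.16 (SE), SPTB at -0.33 ± 1.2 and alas2 at -0.02 ± 0.95.

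Markers of other cells moved between the libraries as well. Pan-endothelial genes summed to 1688 and 1584 CPM ventrally but 561 and 584 CPM dorsally, opposite in direction to the red cell genes. All 5 tested members of that list, of 18 with a count, had a log2 fold above 0. All of these but plvapb met the filter on low counts only through the ventral libraries, which favoured that sign. For plvapb, dorsal library 2, at 117 CPM, also reached the level of the filter. Venous and lymphatic genes summed to 646 and 880 CPM ventrally but 173 and 292 CPM dorsally. Epidermal genes summed to 3708 and 1496 CPM ventrally but 621 and 993 CPM dorsally, and in ventral library 1 this came close to the 3837 CPM of the 5 red cell genes. The epidermal keratin gene krt4 gave 58 counts there and 0 in the other libraries, and cyt1l gave 65 and 0. Counts of krt5, krt91, cyt1, TP63 and cldni also lay only in ventral library 1. In ventral library 2 the sum was mostly krt8 (478 CPM), krt18a.1 (390 CPM), pfn1 (390 CPM) and epcam (214 CPM). These were counted in every library, so the epidermal difference between the sides rests in part on 1 library. Since CPM are shares of 1 total, a change in one group of transcripts shifts all others, and the part of these markers in the red cell values was not tested. Thrombocytes, which also express gata1a, had overlapping marker sums of 304 and 252 CPM ventral and 207 and 389 CPM dorsal, from 4 genes with a count of 8 rows. Of these genes FLI1, at 83.0 and 88.0 CPM ventral and 0 and 97.3 CPM dorsal, is also in the pan-endothelial list. The thrombocyte receptor gene itga2b gave 0 counts. Myeloid markers summed to 369 and 239 CPM ventral and 94.9 and 895 CPM dorsal, and 17 of the 20 counts of the neutrophil gene lyz lay in dorsal library 2.

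Other red cell genes were read from lists of 102 gene rows without globins, of which 42 were tested. Without the genes described above, 36 were tested. Of these, 26 had a log2 fold below 0, which is 72.2%, against 53.9% of all tested genes. None was called by edgeR, against 0.0% of all tested genes called lower and 0.429% called higher. At an unadjusted p under 0.05, 9 of the 36 were lower and 0 higher, where 4.65% of all tested genes were lower and 7.51% higher. Both ventral libraries lay below both dorsal libraries in 15 of the 36 (41.7%), against 19.5% of all tested genes. They lay above them in 6 of the 36, against 19.4% of all tested genes. Their median log2 fold was -0.37, against -0.03 over all tested genes. Of these 36, BNIP3L, slc25a39 and CLPX met the filter on low counts only through the dorsal libraries. ISCU and KLF6 met it only through the ventral ones, so the filter favoured the signs of these genes.

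Genes of heme synthesis were the most uniform of these lists by count. Of the 9 tested genes besides alas2, 8 were below 0, against 53.9% of all tested genes. The median log2 fold of the 9 was -0.52, and none was called. Of the 8, slc25a39 and CLPX met the filter on low counts only through the dorsal libraries, which favoured a fold below 0. UROD, which acts midway in the pathway, was counted 90 and 72 times ventrally, 199 and 40 times dorsally, and its log2 fold was -0.56 ± 0.26 (SE). Its dorsal libraries were far apart. CPOX, a later enzyme of the pathway, was counted 89 and 94 times ventrally, 137 and 35 times dorsally, and stood at 0.06 ± 0.24. Adjusted p in edgeR's test lay above the threshold for both, with 0.455 for UROD.

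Of the other regulators, 6 of 10 tested genes were below 0, with a median log2 fold of -0.12. The zinc finger gene znfl2a stood at -0.43 ± 0.19 (SE), klf17, a Krüppel-like factor of zebrafish red cell formation, at -0.58 ± 0.23, and TAL1, needed for blood and vessel precursors, at -0.59 ± 0.26. SMARCA4, an ATPase of chromatin remodelling, stood at 0.13 ± 0.32. None of these passed, klf17 standing at an edgeR adjusted p of 0.347. Of the membrane and transport genes besides SPTB and SLC4A1, 4 of 6 tested were below 0, with a median of -0.58. DMTN, which binds actin and spectrin, was counted 26 and 22 times ventrally, 53 and 26 times dorsally, and stood at -0.90 ± 0.29, and RHAG, a membrane protein of the Rh complex, at -0.59 ± 0.28. The carbonic anhydrase gene cahz stood at 0.06 ± 0.20, and epb41b, which links spectrin to the membrane, at 0.36 ± 0.24. The membrane list was thus mixed in sign.

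Iron supply genes showed no common direction. Of 5 tested, 3 were below 0, with a median log2 fold of -0.07. Ferritin heavy chain fth1a, which stores iron, stood at -0.25 ± 0.17 (SE), GLRX5, which serves iron-sulfur cluster assembly, at -0.55 ± 0.22, and SNX3, which recycles the transferrin receptor, at -0.07 ± 0.25. In the last list, of red cell metabolism and receptors, 5 of 6 tested genes were below 0, with a median of -0.28. Its examples were NMT1 (ENSDARG00000057206) at -0.40 ± 0.21, a second NMT1 row (ENSDARG00000052966) at 0.83 ± 0.49, the cyclin gene CCNG1 at -0.15 ± 0.27 and GPX4, which removes lipid peroxides, at -0.16 ± 0.32. These genes serve many cell types.

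**Figure D4:**
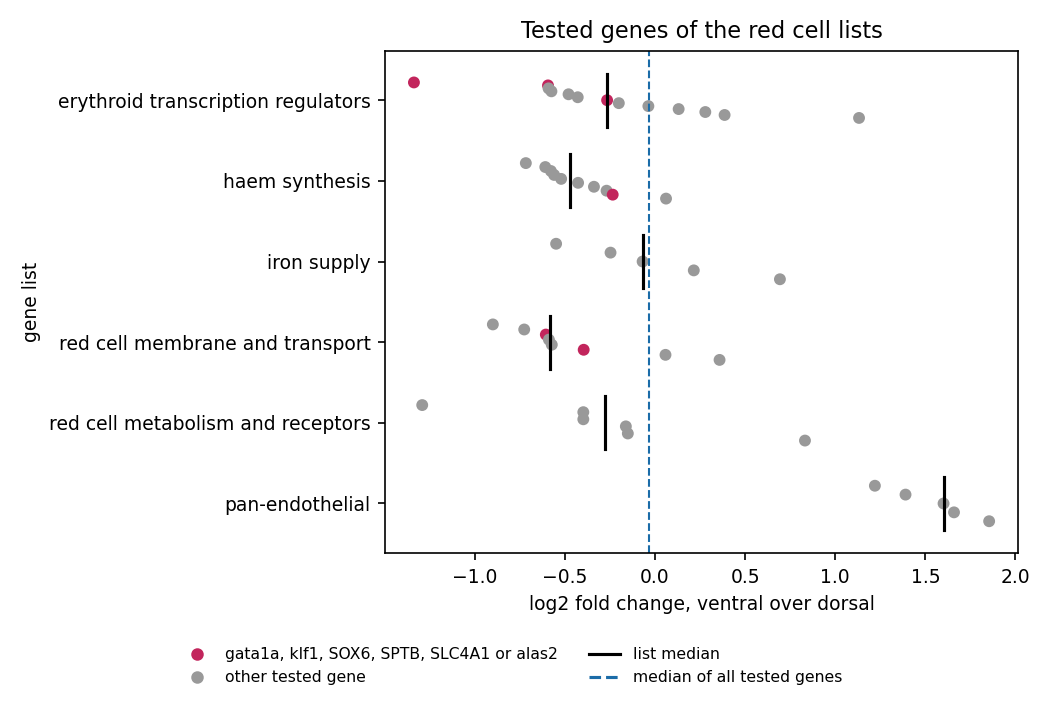
Log2 fold change, ventral over dorsal, of the tested genes in 5 red cell lists and the pan-endothelial list. Points are genes, red for the 6 described singly, black bars are list medians, and the dashed line is the median of all 1399 tested genes at -0.03. Medians were -0.47 for heme synthesis (named haem synthesis in the plot) with alas2, -0.58 for the membrane list, -0.27 for the regulators with gata1a, klf1 and SOX6, and 1.6 for the pan-endothelial list. All of the 5 tested pan-endothelial genes but plvapb met the filter on low counts only through the ventral libraries, which favoured folds above 0. The median of that list is therefore not comparable with the others.

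Patterns across the 4 libraries were compared by the distance between log2 CPM values, here scaled with TMM factors, centred on each gene's mean, over 1394 other tested genes. The genes nearest to the summed red cell genes were GIGYF1 at a distance of 0.018, RNF40 at 0.075, IFRD1 at 0.099, DHX9 at 0.119 and LYPLA2 at 0.123, against a median distance of 0.724. For gata1a the nearest gene was PSMD3 (0.077), for klf1 klf17 (0.056), for SPTB TPX2 (0.061) and for alas2 UBB (0.029). The nearest gene to SOX6 was farther away, CYP20A1 at 0.261, counted 3 and 3 times ventrally, 15 and 6 times dorsally. RNF40, DHX9 and CYP20A1 met the filter on low counts only through the dorsal libraries, which favoured a pattern higher in dorsal. The distances rest on 4 libraries and are a description.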

How the data were processed

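RNA of 4 libraries was prepared with CEL-Seq, with ERCC spike-ins and a unique molecular identifier in each primer, per the labels' protocols. The submitters' processing notes list, without roles, CASAVA 1.8, Bowtie2 2.1.0, HTSeq 0.5.4p3 and the genome Zv9. The deposited table holds whole-number counts for 32434 genes, 92 spike-ins and 5 rows that name no gene. Those rows held 96.4% to 97.4% of each column and were left out. No source used here says whether the authors counted reads or identifiers, or how strand was handled.

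Gene symbols came from a table of Ensembl identifiers. Libraries were compared with edgeR 4.0.16 (R 4.3.3) on the counts, with quasi-likelihood F tests, TMM factors and edgeR's own filter, which kept 1399 of the 12123 genes counted at least once. Tests were 2-sided, with p adjusted over all tested genes by the Benjamini-Hochberg method. SE is the log2 fold divided by the root of F. The fit has 2 residual degrees of freedom. CPM used total gene counts without TMM factors. The pattern distances and the scaled levels of alas2 used TMM factors and the summed counts of the tested genes. The fit was tested on simulated data, where it missed most of the genes changed 2-fold, so genes not called may still differ. Intervals of levels, shares and pooled count ratios are exact (Clopper-Pearson) and cover counting error only. Intervals of 2 SE come from the fit. DESeq2 1.42.0, limma 3.58.1 and other scalings were alternatives. Members and lists were chosen with earlier results of these data known. Named genes are the members, up to 4 tested genes per list with the highest mean count, and the nearest patterns. Single marker genes of other cell types (cdh5, ERG, plvapb, etsrp, FLI1, krt4, itga2b and lyz) were named after their values were seen. So were the epidermal markers krt5, krt8, krt18a.1, krt91, cyt1, cyt1l, epcam, TP63, cldni and pfn1. The genes slc25a39 and CLPX were named for how they met the filter. The symbol ITGA2, matched to itga2b by the rule on paralogue letters, was dropped after the data were seen because it is another integrin. Some genes that this rule names are not reported here. Rows that share a symbol, such as NMT1, are uncertain where reads could be split. No coordinates are given, since the annotation at hand is of another build.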

Additional observations from a re-analysis of the deposited data

How the results depend on the processing

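None of the 5 matched genes or SLC4A1 changed sign or passed the threshold under any of the 12 other scalings, filters, tools and sets of libraries tried first. Log2 folds ran from -1.37 to -1.09 for SOX6 (adjusted p from 0.0545 to 0.9995), -0.77 to -0.34 for klf1, -0.67 to -0.33 for SPTB, -0.53 to -0.03 for gata1a and -0.27 to -0.02 for alas2. The summed level moved from -0.40 to -0.18 with ERCC scaling and to -0.60 without alas2, and ran from -0.55 to -0.23 with 1 library left out. Over all genes, 6 were called higher and 0 lower in the ventral libraries with edgeR. Calls of higher genes numbered 14 without scaling factors, 0 with ERCC scaling, 43 without a filter, 18 without genes at the ceiling, 21 after correction for repeated identifiers, 0 with DESeq2 and 0 with voom. Calls of lower genes numbered 4 without a filter and 1 after that correction. With 1 library left out, 0 to 46 genes were higher and 1 to 5 lower, a lone library being assumed to vary like the other side. Higher calls numbered 0 without dorsal library 1 and 46 without ventral library 2. The cause was not tested. The labels pair no libraries. A replicate block of the libraries whose titles carry adjacent numbers, added after the data were seen, gave 10 higher and 0 lower genes, SOX6 at -1.34 ± 0.32 (adjusted p = 0.108) and gata1a at -0.25 ± 0.24, and none of the 5 genes passed. Deviations of such libraries from their group means correlated at -0.025 across 1399 genes. Counting error in genes with few counts can hide a shared batch, so this value cannot decide whether such libraries belong together. The main fit left them unpaired because the labels give no pairs.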

Other observations

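Red cell genes outside the naming rule, picked after their values were seen, gave further values. BNIP3L, a receptor for the removal of mitochondria in maturing red cells of mice, was counted 9 and 4 times ventrally, 21 and 8 times dorsally, and its log2 fold was -1.29 ± 0.52 (SE) at an adjusted p of 0.347 in edgeR. BNIP3L met the filter on low counts only through the dorsal libraries, which favoured a fold below 0. The heme synthesis enzyme gene uros was counted 24 and 19 times ventrally, 48 and 17 times dorsally, at -0.72 ± 0.30. The adducin gene add2, whose product caps actin at the membrane network, gave 23 and 20 against 47 and 18 counts, at -0.73 ± 0.30. The mitochondrial transporter gene ABCB10 gave 45 and 31 against 73 and 29 counts, at -0.58 ± 0.23. Genes of the same lists also lay on the other side of 0, among them KLF6 at 1.13 ± 0.61, ISCU at 0.69 ± 0.50 and LMO2 at 0.39 ± 0.33. Of these, KLF6 and ISCU met the filter on low counts only through the ventral libraries. None of the genes named in this paragraph passed the test's threshold.

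Several red cell genes were near the floor. The erythropoietin receptor gene EPOR was counted 0 and 1 times ventrally, 3 and 0 times dorsally, and the mitochondrial iron importer gene SLC25A37 gave 2 and 2 against 6 and 2. Of the tested globins below the ceiling of identifiers, HBE1 and hbae5 overlapped between the sides, and hbae4 did not, at 590 and 666 CPM ventrally, 829 and 720 CPM dorsally. The row ENSDARG00000045143, named HBE1, was counted 307 and 240 times ventrally, 451 and 135 times dorsally, at 2832 and 3018 against 3892 and 2628 CPM.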
